A study of Mus musculus with 7 samples.

Results

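The genes described here are 9 regulators of lateral plate and cardiac mesoderm, chosen by name with earlier results of these data known. They are the transcription factor genes Hand1, Hand2, Foxf1, Isl1, Nkx2-5, Tbx5, Tbx20 and Gata5, and the receptor gene Kdr. All 9 were present among 18194 genes, and 18 of the 34958 probe sets annotated to a single gene measured them. Expression was measured with Affymetrix GeneChip Mouse Genome arrays in 7 samples, 1 array for each. SK7_ESC is the undifferentiated male mouse ES cell line SK7, which carries a GFP reporter transgene under the Pdx1 promoter. Ect, End and Pme are ectoderm, endoderm and paraxial mesoderm differentiated from that line in culture, so they share the transgene and a single line of origin. The adult tissues Brain, Liver and Sk_muscle, which is skeletal muscle, were taken from untreated male ICR mice older than 9 weeks, and the labels give ICR as the strain of the cultured samples as well. How many animals stand behind each tissue is not known from these sources.

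The lateral plate is the mesoderm at the edge of the embryo, outside the paraxial mesoderm that forms the somites, and it gives rise to the heart, the vessels, the body wall and the limb buds. BMP signals favour lateral over paraxial fate. HAND1 and HAND2 are related basic helix-loop-helix factors of the heart, the lateral plate and the limb, and FOXF1 is a forkhead factor of lateral and splanchnic mesoderm. ISL1 marks progenitors of the second heart field and also motor neurons, while NKX2-5, TBX5, TBX20 and GATA5 act in heart muscle and endocardium. KDR, a receptor for vascular endothelial growth factor (VEGF), is found on early lateral mesoderm and on endothelium.

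Signals are linear intensities, scaled by the authors so that arrays have the same average once the top and bottom 2% of values are left out. Where several probe sets measured a gene, the one that was brightest on average (mean of log2 signals over the 7 arrays) stood for it. Signals above 50 counted as above background. For each comparison, signals under 50 were first raised to 50, and the gene was called where the ratio then reached 2. A ratio to a raised signal is a lower bound. With 1 array per condition there was no replicate error to test a difference against, and no p-values are given.

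The labels were checked against defining genes. Of 6 pluripotency genes, 6 had their highest signal in SK7_ESC, and so had 5 of the 6 neural progenitor genes in Ect, the remaining one (Pax6) being under background everywhere. Among endoderm genes, 8 of 11 were called higher in End against SK7_ESC, where 4.89% of all genes were. Syn1, a synaptic vesicle gene, was 817.5 in Brain, Alb (albumin) was 11977 in Liver and Ckm (muscle creatine kinase) was 1272 in Sk_muscle. Paraxial mesoderm genes gave a mixed picture in Pme. Of 23 measured, 2 exceeded SK7_ESC, where 6.74% of all genes did (Pdgfra and Twist1, the latter with 199.5 against 9.5) and 1 was lower (the somite gene Tcf15, 29.1 against 110.8). Of the 14 paraxial genes above background in any array, 4 were brightest in Pme (Foxc1, Pdgfra, Twist1 and Tbx18) and 7 in Ect. Tbx6 and Meox1, defining factors of presomitic mesoderm and of somites, were 17.7 and 16.0 in Pme, under background. The name Pme is therefore kept here as the label of the array.

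More of the lateral and cardiac mesoderm factors were above background in Pme than in any other array. Above background in Pme there were 6 of 9 (Hand1, Hand2, Foxf1, Isl1, Tbx20 and Kdr), against 47.4% of all genes. No member passed in the ES cells or in the brain, that is 0 of 9 in SK7_ESC (44.4% of all genes) and 0 of 9 in Brain (49.9%). A single member passed in each remaining array: Hand2 in Ect, 1 of 9 (47.1% of all genes), Isl1 in End, 1 of 9 (45.5%), and Kdr in Liver, 1 of 9 (42.9%), and in Sk_muscle, 1 of 9 (43.3%). By the probe set that stood for the gene, Hand1, Foxf1 and Tbx20 were above background in Pme alone, as were 0.489% of all genes, although another probe set of Tbx20 was also above background in End. In bulk samples, fewer cells that express a gene and less RNA per cell cannot be told apart.

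**Figure D1:**
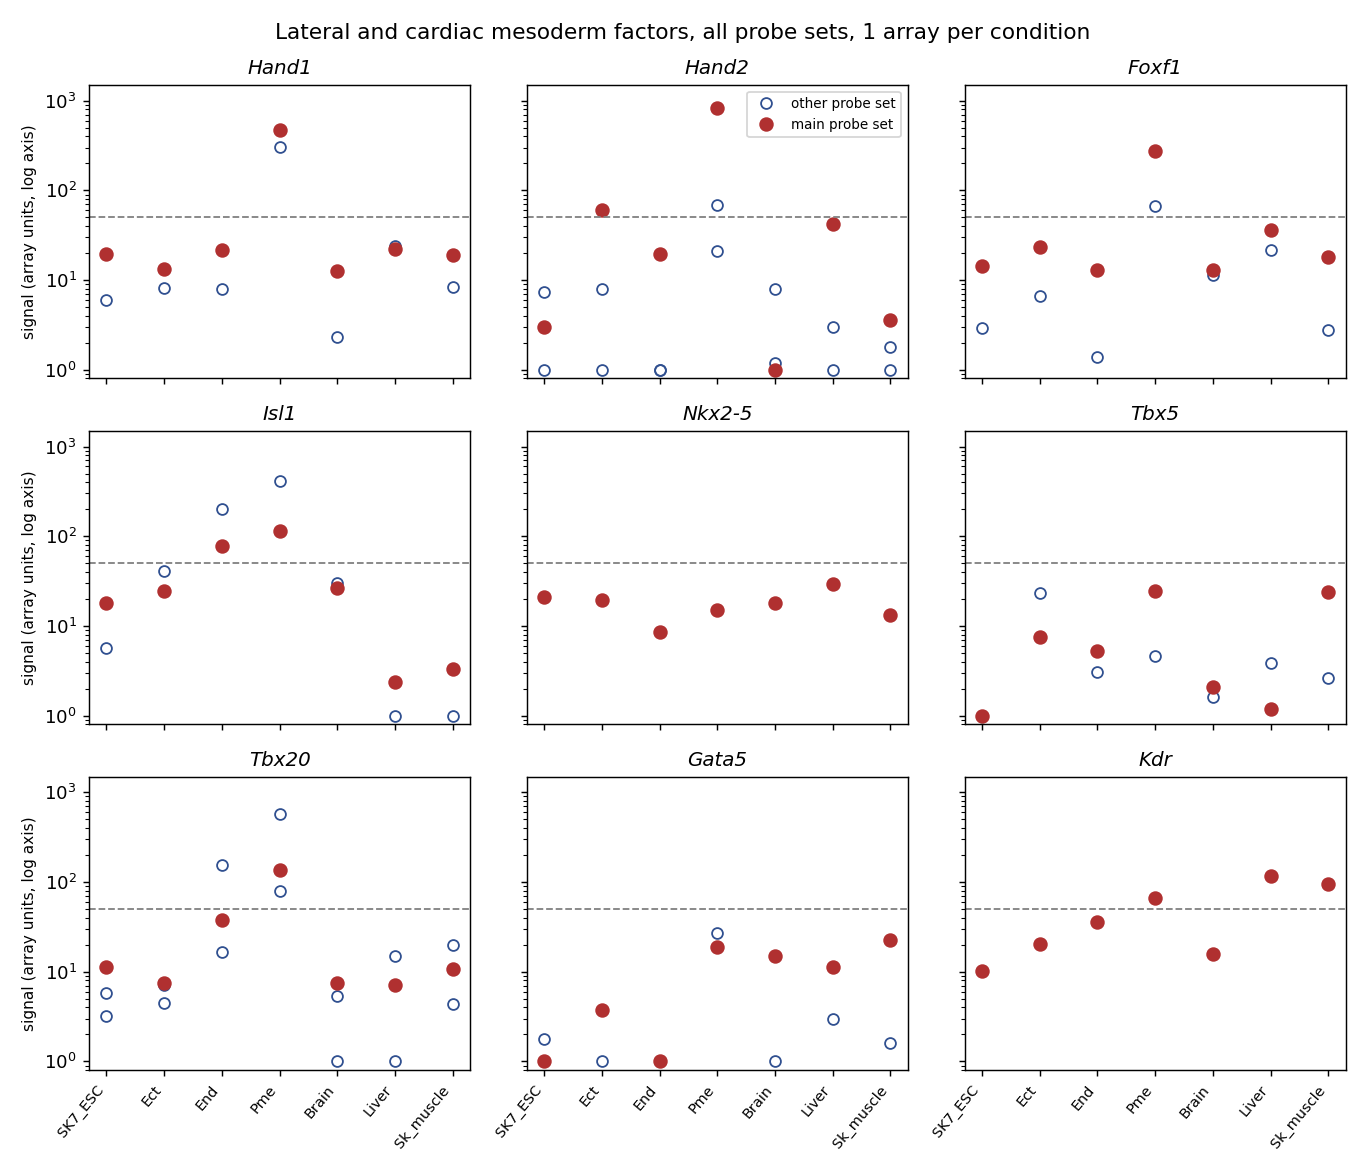
Signals (log axis, array units; signals under 1 are drawn as 1) of each of the 9 genes in the 7 arrays, 1 array each, with the main probe set as a filled red point and other probe sets of the same gene as open blue points. The dashed line is the background of 50; Hand1, Hand2, Foxf1, Isl1 and Tbx20 stand highest in Pme, and Nkx2-5, Tbx5 and Gata5 stay under the line in all arrays.

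Both basic helix-loop-helix genes were called in Pme, with ratios that depended on the probe set. The signal of Hand2 was 3.0 in SK7_ESC, 60.6 in Ect, 19.7 in End, 820.8 in Pme, 1.0 in Brain, 41.8 in Liver and 3.6 in Sk_muscle. Pme was thus the only array far above background, and Ect lay just above it. The ratio of Pme to SK7_ESC was at least 16.4, and the ratio to Ect, the brighter of the other layers, was 13.5. Ranked by the latter comparison, Hand2 was number 3 of the 18194 genes. Hand1 had 19.6 in SK7_ESC, 13.3 in Ect, 21.5 in End, 469.5 in Pme, 12.6 in Brain, 22.4 in Liver and 19.0 in Sk_muscle. It was under background everywhere except in Pme, where it was at least 9.39-fold higher than in SK7_ESC and than in both other layers. A second probe set of Hand1 gave 305.9 in Pme and at most 23.8 elsewhere. For Hand2, the other probe sets were dimmer, with 68.8 and 21.2 in Pme and at most 7.9 elsewhere, so that neither reached a call. With the geometric mean of its probe sets, Hand2 was at least 2.12-fold higher in Pme than in SK7_ESC, below Hand1 (7.58), Isl1 (4.37), Tbx20 (3.67) and Foxf1 (2.73), and it kept its call.

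Foxf1 was likewise above background in Pme and in no other array. Its signal was 14.2 in SK7_ESC, 23.4 in Ect, 13.1 in End, 278.4 in Pme, 13.1 in Brain, 36.2 in Liver and 18.2 in Sk_muscle. Pme was at least 5.57-fold higher than SK7_ESC and than each of the other layers. The other probe set of Foxf1 had 66.9 in Pme and at most 21.8 in the remaining arrays, with a ratio to SK7_ESC of at least 1.34, under the 2-fold rule.

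The heart factors Tbx20 and Isl1 were shared between Pme and End in part, and their probe sets differed. Tbx20 had 11.3 in SK7_ESC, 7.5 in Ect, 37.7 in End, 136.9 in Pme, 7.5 in Brain, 7.1 in Liver and 10.6 in Sk_muscle. It was at least 2.74-fold higher in Pme than in SK7_ESC and than in both other layers. With the brightest of its 3 probe sets, Tbx20 was 566.7 in Pme and 154.2 in End, above background in both, with 5.8 in SK7_ESC and at most 14.8 in the remaining arrays. By that probe set the ratio to SK7_ESC was at least 11.3 in Pme and at least 3.08 in End, and Pme was 3.68-fold above End. Isl1 had 18.0 in SK7_ESC, 24.2 in Ect, 77.1 in End, 114.2 in Pme, 26.7 in Brain, 2.4 in Liver and 3.3 in Sk_muscle. Pme was at least 2.28-fold higher than SK7_ESC, and 1.48-fold higher than End, which was not called. Its other probe set gave 417.6 in Pme, 201.3 in End, 41.0 in Ect and 30.1 in Brain, and at most 5.7 in SK7_ESC, Liver and Sk_muscle. By that probe set, Isl1 was at least 8.35-fold higher in Pme than in SK7_ESC, at least 4.03-fold higher in End than in SK7_ESC, and 2.07-fold higher in Pme than in End. A call for Isl1 and Tbx20 in End thus depended on the probe set, while both probe sets of Isl1 and 2 of the 3 of Tbx20 gave the call in Pme.

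Putting these genes together, 5 of the 9 members exceeded SK7_ESC in Pme and 0 were lower, where 6.74% of all genes were higher and 4.55% were lower. The median log2 ratio was 1.19 over the members and 0 over all genes. Against Ect and End, 4 of 9 were higher in Pme than in both (Hand1, Hand2, Foxf1 and Tbx20) and 0 were lower than in both, where 2.06% and 0.401% of all genes were. With a background of 100 or a ratio of at least 3, Tbx20 was no longer called and 3 were left, and with the probe set of the highest signal Isl1 was called as well, which gave 5. The 4 genes first named were higher in Pme than in each of the other 6 arrays, as were 0.737% of all genes. Against Brain, Liver and Sk_muscle, 5 of 9 were higher in Pme than in all of these tissues and 0 were lower, compared with 7.79% and 1.37% of all genes. In Ect, 0 of 9 were higher or lower than in SK7_ESC, where 6.62% of all genes were higher and 4.89% lower. In End, 0 of 9 were higher or lower, where 4.89% of all genes were higher and 3.81% lower. These comparisons share the SK7_ESC array or the Pme array and are not independent of each other. Because SK7_ESC had no member above background, its highest member signal being 21.0, the ratios to it are lower bounds set by the background. A call of lower also needs each array compared against to be above background. No member met this in SK7_ESC, in both Ect and End, or in all the adult tissues. The counts of 0 lower were therefore fixed by the rule, whatever the share of all genes. With a background of 100, or a ratio of at least 3, the members higher in Pme than in SK7_ESC were 3 of 9 (Hand1, Hand2 and Foxf1). With a background of 20 they were 6 of 9, Kdr included. Scaling the arrays to the same median left 5 members higher, while over all genes it turned 1227 higher and 827 lower into 983 higher and 1292 lower.

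**Figure D2:**
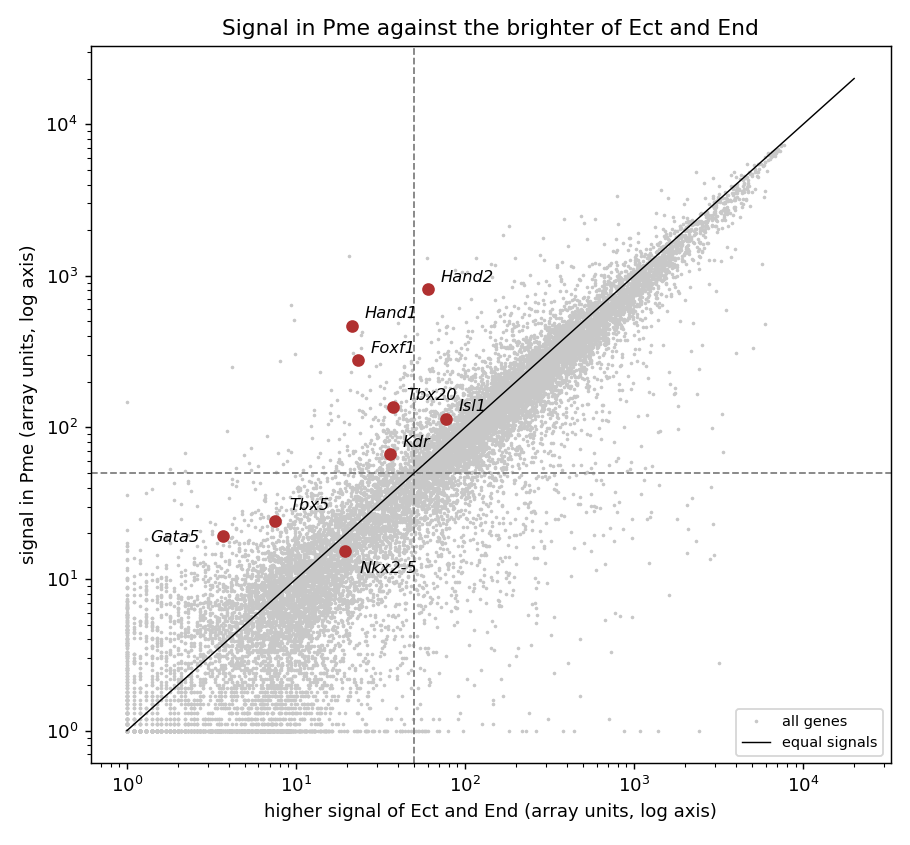
Signal in Pme against the higher of the signals in Ect and End (both log axes, array units; signals under 1 drawn as 1), with grey points for all 18194 genes and red points for the 9 members, 1 array per condition. Dashed lines mark the background of 50 and the black line equal signals; Hand1, Hand2, Foxf1 and Tbx20 lie above the line by more than the 2-fold rule asks, and Nkx2-5 lies under background on both axes.

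Probe sets of a gene differed in the size of the ratio more than in the brightest array. All 12 probe sets of the 5 genes called higher in Pme had their highest signal in Pme; 11 of them were above background there and 8 were called higher than SK7_ESC. Of all 18 probe sets of the members, 12 were above background in Pme, 3 in End and 1 in Ect, and 0 in SK7_ESC.

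Sequence upstream of the start site is shown for 3 of the members that were higher in Pme than in SK7_ESC, since promoter methylation at CG dinucleotides, which is not analysed here, was the subject of the study. The windows are the 250 bases before the annotated start in RefSeq (build GRCm38.p6), written 5′ to 3′ on the strand of the gene, and CG dinucleotides are in capitals. Windows were at hand for 6 of the 9 members (Hand2, Isl1, Nkx2-5, Tbx20, Gata5 and Kdr). The Hand2 window is chr8:57320733-57320982 on the plus strand, that of Isl1 chr13:116309689-116309938 on the minus strand, and that of Tbx20 chr9:24774304-24774553 on the minus strand.
Hand2: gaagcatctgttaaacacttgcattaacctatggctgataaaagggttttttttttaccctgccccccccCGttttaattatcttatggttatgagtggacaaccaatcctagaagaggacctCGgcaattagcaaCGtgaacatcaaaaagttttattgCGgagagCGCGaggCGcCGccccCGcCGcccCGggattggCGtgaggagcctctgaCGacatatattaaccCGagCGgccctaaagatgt
Isl1: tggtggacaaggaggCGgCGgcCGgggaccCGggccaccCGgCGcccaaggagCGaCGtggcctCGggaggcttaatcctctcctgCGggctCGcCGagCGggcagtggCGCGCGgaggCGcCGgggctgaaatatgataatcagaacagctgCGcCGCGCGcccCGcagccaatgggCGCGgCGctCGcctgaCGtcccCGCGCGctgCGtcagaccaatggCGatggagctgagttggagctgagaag
Tbx20: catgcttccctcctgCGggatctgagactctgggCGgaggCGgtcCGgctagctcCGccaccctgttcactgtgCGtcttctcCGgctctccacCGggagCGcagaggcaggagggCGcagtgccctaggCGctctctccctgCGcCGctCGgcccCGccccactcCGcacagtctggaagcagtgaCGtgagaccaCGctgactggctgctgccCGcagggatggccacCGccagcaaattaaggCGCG

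These windows held 15 CG dinucleotides for Hand2, 33 for Isl1 and 22 for Tbx20. Over 32851 windows of the same length in RefSeq the median was 6 and the upper quartile 16. Members that were not called in Pme had 22 (Gata5), 16 (Kdr) and 8 (Nkx2-5), so that the counts of the genes called in Pme and of those not called overlapped. Motif letters were searched on both strands. The E-box CANNTG, the site of basic helix-loop-helix factors, occurred 2 times in the Hand2 window, 1 time in Isl1, Nkx2-5, Gata5 and Kdr, and 0 times in Tbx20; 66.2% of all windows hold it. The GATA motif GATAA occurred 2 times in Hand2 and 1 time in Isl1, and 22.6% of windows hold it. The NK-2 motif AAGTG occurred 1 time in Hand2, where it overlaps an E-box, and 1 time in Kdr, and 40.7% of windows hold it. The T-box motif GGTGTGA and the letters TATAAA were in none of the 6 windows, and 3.33% and 12.4% of all windows hold them. Such matches describe the letters of these windows and not the binding of a factor.

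Nkx2-5, Tbx5 and Gata5 were under background in all 7 arrays with each of their 5 probe sets, the highest signal being 29.3. Nkx2-5, a homeodomain factor of heart muscle progenitors, had 15.2 in Pme, 21.0 in SK7_ESC and 29.3 in Liver. Tbx5, a factor of the forelimb and the heart, had 24.3 in Pme and 23.7 in Sk_muscle, and 0.7 to 7.5 in the other arrays. By its other probe set, Tbx5 had 4.6 in Pme and 23.4 in Ect. Gata5, a factor of endocardium and endoderm, had 19.1 in Pme and 22.7 in Sk_muscle, and 0.5 in End. By its other probe set, Gata5 had 26.9 in Pme and at most 3.0 elsewhere. Signals under background give no order of the arrays, and how well these probe sets respond to their transcripts was not tested.

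Kdr was measured by 1 probe set and did not share the pattern of the transcription factors. Its signal was 10.1 in SK7_ESC, 20.3 in Ect, 36.1 in End, 66.7 in Pme, 15.6 in Brain, 116.0 in Liver and 96.2 in Sk_muscle. Liver and Sk_muscle were brightest, and Pme was the only cultured sample above background. The ratio of Pme to SK7_ESC was at least 1.33 and was not called, whereas with a background of 20 it was at least 3.34 and was called. Among 20 other genes of endothelium and blood-forming mesoderm, 0 were called between Pme and SK7_ESC, where 6.74% of all genes were higher and 4.55% lower. Above background were 2 in Pme (47.4% of all genes), 2 in SK7_ESC (44.4%) and 18 in Sk_muscle (43.3%). With so few above background in SK7_ESC, a call of lower in Pme was hardly open to this list. Pecam1 and Cdh5, adhesion molecules of endothelium, were 42.7 and 1.5 in Pme, under background. Etv2, a factor of blood and vessel progenitors, was 49.8, just under the background of 50. The 2 above background in Pme were Tek (95.3, and 22.4 in SK7_ESC) and Fli1 (73.7, and 0.9 in SK7_ESC). Their ratios of at least 1.91 and at least 1.47 were not called. The summed signal of the 20 genes was 461.5 in Pme, 468.3 in SK7_ESC and 3384 in Sk_muscle. Among the genes of the VEGF family, 5 of 9 exceeded SK7_ESC in Pme and 0 were lower. Higher than in SK7_ESC were also 3 of 9 in End (4.89% of all genes) and 2 of 9 in Ect (6.62%). In Pme, 2 of 9 were higher than in both other layers, where 2.06% of all genes were. The co-receptor gene Nrp1 was 819.4 in Pme and 30.9 in SK7_ESC, Vegfc, which encodes a ligand of lymphatic vessels, was 1002 and 107.5, and the co-receptor gene Nrp2 was 182.9 and 37.7. Nrp1 was 620.0 in End as well.

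Within their own families the members took different places. The 7 T-box genes taken here were Tbx5, Tbx20 and the relatives Tbx2, Tbx3, Tbx4, Tbx15 and Tbx18. By the probe set that stood for each gene, 5 were above background in Pme (Tbx2, Tbx3, Tbx4, Tbx18 and Tbx20), against 47.4% of all genes. In End 1 was (Tbx3), against 45.5%. Tbx3 was brighter in SK7_ESC (194.2) than in Pme (130.5), and Tbx2 and Tbx18 were not called. The T-box genes Tbx1, Tbx6 and Eomes, from other lists, were 0.5, 17.7 and 25.7 in Pme, and Eomes was 1246 in End. Tbx4, the hindlimb and allantois relative of Tbx5, was 146.8 in Pme, 13.0 in SK7_ESC and at most 26.9 in the remaining arrays, and was at least 2.94-fold higher in Pme than in SK7_ESC, whereas Tbx5 stayed under background. Tbx4 was chosen here after its values were seen. Among 6 GATA genes, 0 were brightest in Pme. Gata6, which acts in heart and endoderm, was 408.6 in Pme, 999.7 in End and 60.6 in SK7_ESC, and was 6.74-fold higher in Pme than in SK7_ESC. Gata4, a partner of NKX2-5 in the heart, was 98.6 in Pme, 247.7 in End and 26.5 in SK7_ESC. Its ratio of Pme to SK7_ESC was at least 1.97, just under the rule. Thus the members of the GATA family that were above background in Pme were brighter in End, and Gata5 itself was above background in neither. Of the 19 closest relatives of the 9 members, 4 exceeded SK7_ESC in Pme and 0 were lower, where 6.74% and 4.55% of all genes were. The receptor kinase genes Pdgfra (1062 against 76.1) and Pdgfrb (423.5 against 33.5) had the largest ratios.

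**Figure D3:**
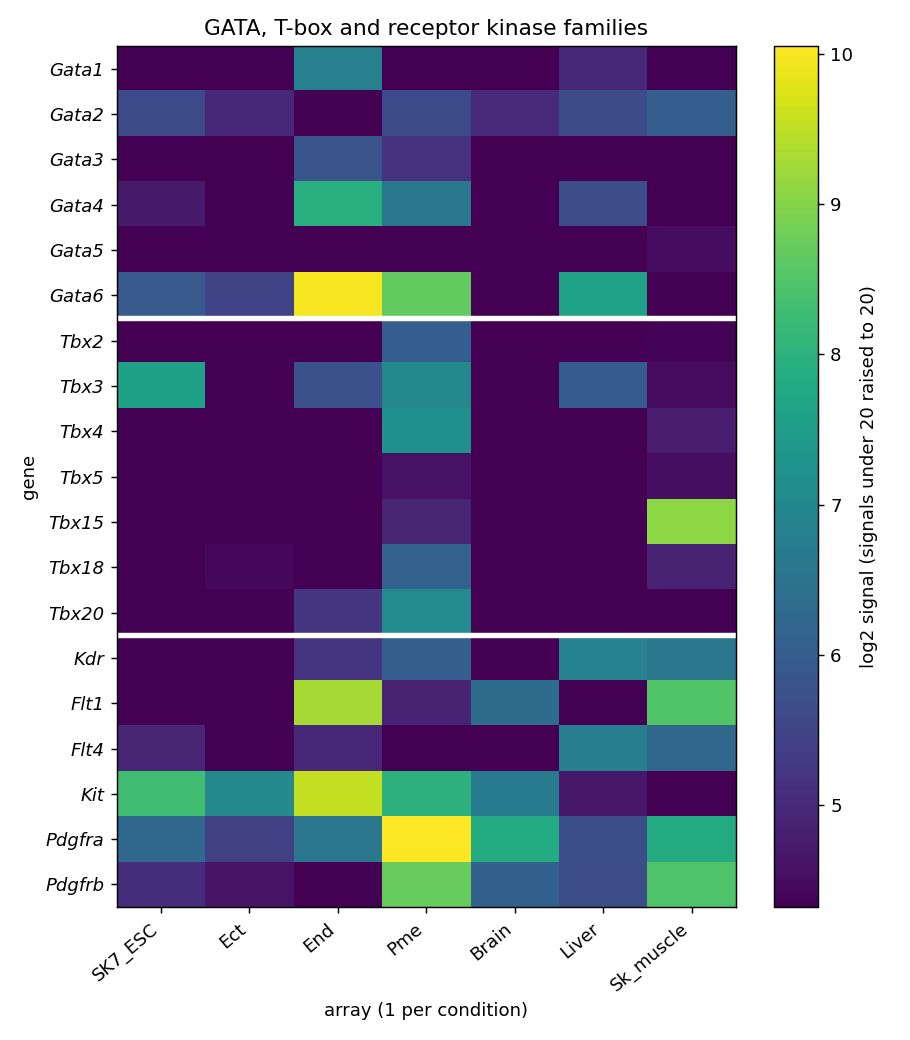
Colour gives the log2 signal (signals under 20 raised to 20) of GATA genes, T-box genes and receptor tyrosine kinase genes, with genes in lines and the 7 arrays in columns, 1 array each. Colours compare arrays within a line and not genes with each other; Gata6 and Gata4 are brightest in End, Tbx4 and Tbx20 in Pme, and Kdr in Liver.

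Other regulators of heart and lateral plate mesoderm were mixed in Pme. Of 23 measured, 6 were higher than in SK7_ESC, 0 were lower and 17 were neither, where 6.74% of all genes were higher and 4.55% lower. The median log2 ratio was 0.24 against 0 for all genes. The 6 became 3 with the geometric mean of probe sets and with a ratio of at least 3. Bmp4, a signal that patterns lateral mesoderm, was 1084 in Pme and 67.9 in SK7_ESC, a ratio of 16.0. Gata6 and Prrx1, a homeobox gene of limb and lateral plate mesenchyme, were next, and Prrx1 was 304.7 in Pme and 27.5 in SK7_ESC. The BMP pathway as a list had 13 of 18 members up in Pme relative to SK7_ESC and 0 down, against 6.74% and 4.55% of all genes. Its median log2 ratio was 2.07. Id3, a direct target of BMP signals, was 991.0 against 47.0, and it was nearly as bright in Ect (878.6) and End (675.9). Smad6, an inhibitor within the pathway, was 663.7 against 45.6, with 44.4 in Ect and 226.8 in End. Bmp2 and the target Id1 were 252.1 and 593.7 in Pme, but 436.2 and 948.9 in End. Of the same 18 genes, 7 were higher and 1 was lower in Ect than in SK7_ESC, against 6.62% and 4.89% of all genes. In End, 9 were higher and 1 was lower, against 4.89% and 3.81% of all genes.

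Most genes of contracting heart muscle, like most of all genes, were not called in Pme. Of 20 such genes, 2 were higher than in SK7_ESC and 0 were lower, where 6.74% and 4.55% of all genes were. The median log2 ratio was 0, a value set by the many genes of the list under background in both arrays. Tpm1, a tropomyosin that non-muscle cells also make, was 2099 in Pme and 319.9 in SK7_ESC, and Actc1, the cardiac actin gene, was 142.3 and 9.3. Tnnt2, the cardiac troponin T gene, had 67.5 in Pme and 0.8 in SK7_ESC, with a ratio of at least 1.35. Myh6 and Nppa, which encode the atrial myosin heavy chain and atrial natriuretic peptide, had 2.0 and 6.2 in Pme. Tnni1 and Tnnc1, further troponin genes, were 88.1 and 80.1 in Pme and 6.1 and 18.0 in SK7_ESC, and were not called. Above background were 5 of the 20 in Pme (47.4% of all genes), 2 in SK7_ESC (44.4%) and 13 in Sk_muscle (43.3%).

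Genes of other cell types were checked beside the members. For each count between Pme and SK7_ESC, the share of all genes was 6.74% higher and 4.55% lower. For fibroblasts and smooth muscle, 9 of 13 genes exceeded SK7_ESC in Pme and 0 were lower. Dcn, a matrix proteoglycan gene, was 1766 in Pme against 21.9 in SK7_ESC, Col1a1 was 1204 against 57.7, and Col3a1 was 1182 against 105.2. Their summed signal over the 13 genes was 9932 in Pme, 1238 in SK7_ESC, 2638 in Ect and 669.4 in End, so that it was also highest in Pme among the cultured samples. In Sk_muscle it was 15101, where Hand1, Hand2, Foxf1, Isl1 and Tbx20 were under background. The part of fibroblast RNA in the signals of the members was not tested. Of 9 trophoblast genes, 2 were higher in Pme and 1 was lower. Plac1, a placental gene, was 642.5 in Pme and 24.4 in SK7_ESC, and Cdx2, a factor of trophoblast and of the posterior embryo, was 414.7 and 1.6, while Tfap2c was 17.9 and 348.4. Elf5, Tpbpa and Esx1, chosen after their values were seen, were 1.5, 4.6 and 10.0 in Pme. Of 12 genes of neural crest, sympathetic and motor neurons, 0 were higher or lower in Pme. Of 9 primitive streak genes, 0 were called in Pme in either direction and 6 were higher in End than in SK7_ESC, where 4.89% of all genes were. None of these crest, neuron and streak genes was above background in SK7_ESC, so none could be called lower than it. Evx1 was 94.7 in Pme and 1.8 in SK7_ESC, a ratio of at least 1.89, just under the rule. The gene T was on the streak list and was not among the genes measured under that symbol. Of 11 endoderm genes, 2 were higher in Pme (Gata6 and the chemokine receptor gene Cxcr4) and 0 were lower. Sox17 and Foxa2, defining factors of endoderm, were 23.1 and 59.5 in Pme against 2942 and 958.2 in End. Of 9 intermediate mesoderm genes, Hoxa11 was higher (164.2 against 11.8) and Sall1 was lower (306.8 against 729.4). With a background of 20, the genes higher in Pme than in SK7_ESC were 12 of 23 heart and lateral plate regulators, 5 of 20 heart muscle genes, 2 of 20 endothelial genes, 5 of 23 paraxial genes, 4 of 11 endoderm genes and 7 of 19 relatives. With a background of 100, they were 3 of the 23 heart and lateral plate regulators, 3 of the 9 VEGF genes, 1 of the 20 heart muscle genes, 1 of the 23 paraxial genes, 1 of the 11 endoderm genes and 0 of the 9 intermediate mesoderm genes. A ratio of at least 3 left 3 VEGF genes and 1 heart muscle gene. Of all genes, 10.2% were higher with a background of 20, 4.24% with a background of 100 and 3.07% with a ratio of at least 3. Genes may stand in several of these lists, and counts over lists are not independent.

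**Figure D4:**
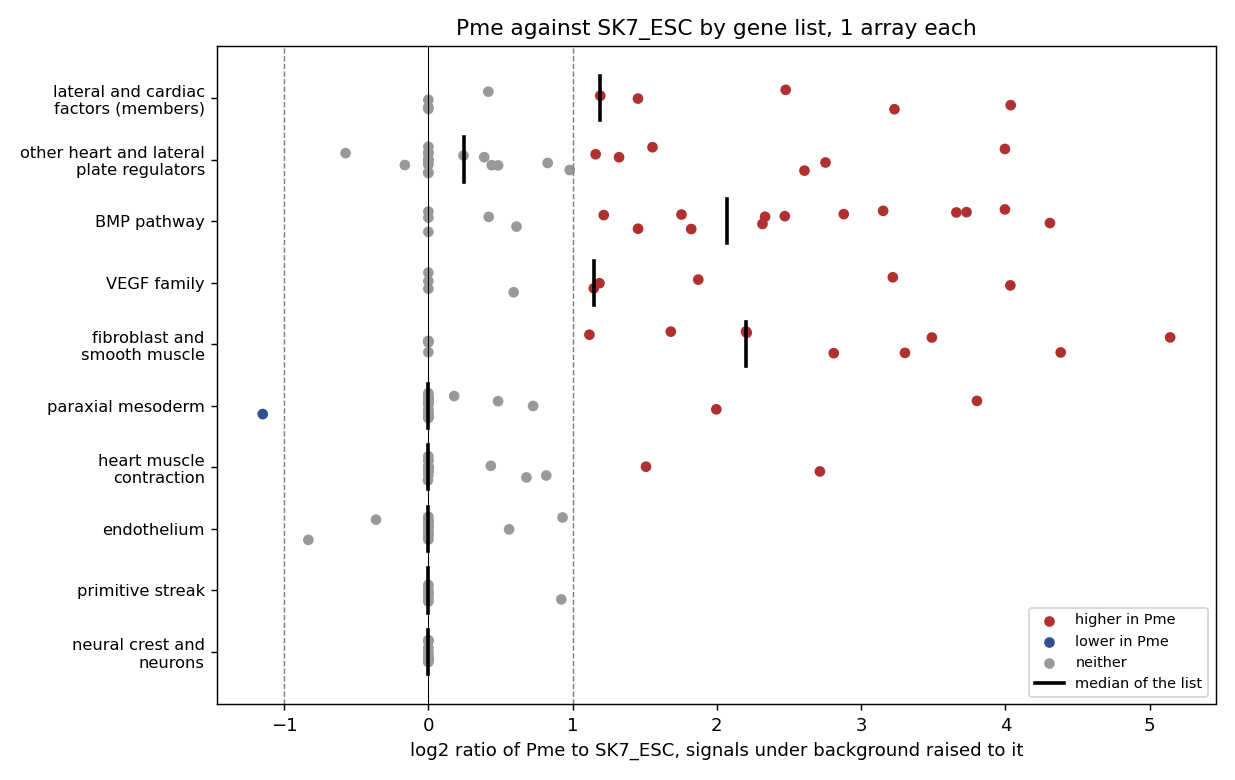
Each point is a gene, placed by its log2 ratio of Pme to SK7_ESC after signals under the background of 50 were raised to it, with gene lists in lines, black bars for list medians and points spread at random in height. Dashed lines mark the 2-fold rule. Higher in Pme were 5 of 9 lateral and cardiac factors, 13 of 18 BMP genes, 9 of 13 fibroblast genes and 0 of 20 endothelial genes, against 6.74% of all genes.

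Genes whose pattern over the 7 arrays was most like that of a member were named by Pearson's r of log2 signals, with signals under 20 raised to 20. Predicted genes and genes with clone or locus names were left out of the 3 named for each member. Equal values of r were taken in alphabetical order. The arrays are the points of these correlations, so n = 7, they share the SK7 line in 4 cases, and r is a description. For Hand2 the nearest were Serpinb6b, a serpin gene (r = 0.98), Cdx2 (r = 0.98) and Hoxd9, a posterior homeobox gene (r = 0.98). For Foxf1 they were Adgra2, an adhesion receptor gene, the metalloprotease gene Adam12 (both r = 0.99) and Hand1 (r = 0.98). Hand1 had 20 genes at r of 0.99 or more, among them Frem1, Gabre and Hoxa11os, and any gene above the floor in Pme alone takes the same value. For Isl1 the nearest were the co-repressor gene Tle2, Prdm6, a factor of vascular smooth muscle (both r = 0.98), and Col23a1 (r = 0.97). For Tbx20 they were the matrix metalloprotease gene Mmp9 (r = 0.99), the hyaluronan synthase gene Has2 and the imprinted gene Peg10 (both r = 0.98). Kdr was nearest to Pnrc1 (r = 0.98), Ufsp2 and Ifi35 (both r = 0.97), which are not genes of vessels. Among the 5 members higher in Pme, r between pairs ran from 0.65 (Hand2 with Isl1) to 0.98 (Hand1 with Foxf1). The names rested on the floor, as 3 of the 18 named pairs returned with a floor of 50.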

How the data were processed

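RNA from 7 samples was hybridized to Affymetrix GeneChip Mouse Genome arrays, 1 array for each. What the authors deposited is a linear intensity for every one of 45101 probe sets, which the methods describe as scaled globally to an average of 100. How probes were summarised into probe sets was not given in the sources. Without the top and bottom 2% of values, each array had a mean of 100, while the means of all values ran from 141.2 in Brain to 204.2 in Sk_muscle. For RNA, the labels name an RNeasy kit and the methods TRIzol.

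Probe sets were named from the platform annotation, and 34958 with 1 symbol were used. Members and gene lists were chosen with earlier results of these data known. For each gene, the probe set brightest on average was used (mean log2, signals under 0.1 raised to 0.1). A ratio of at least 2 after raising signals under 50 to 50 was a call. The call was run on simulated data with changes planted only in genes above 100 in SK7_ESC. That run did not cover calls against a raised signal, such as those of the members. There were no replicates and no tests, and precision is limited by having 7 arrays. Related lists were fixed by name. The genes planned to be named from them were the 3 with the largest calls for Pme against SK7_ESC and the defining genes of each list. Other genes named from them, such as Tek, Fli1, Tnni1, Tnnc1 and Evx1, were chosen after their values were seen. Alternatives were a background of 20 or 100, quantile normalization, scaling to equal medians, averaging the log2 signals of probe sets (geometric mean), leaving out probe sets of shared sequence, and a ratio of 3. The probe set with the highest signal in any array was added after the data were seen. Promoter windows were read from RefSeq (GRCm38.p6). Protein sequences, DNA methylation and coordinates of the probe sets were not analysed here. Python 3.11.15, numpy 2.4.6, pandas 2.3.3 and matplotlib 3.10.9 were used.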

Additional observations from a re-analysis of the deposited data

Results flagged for a closer look

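Other probe sets of 2 members, not used for the main values, were above background in End while SK7_ESC was under it. The brighter probe set of Isl1 was at least 4.03-fold higher in End than in SK7_ESC, with 201.3 against 5.7, where the main probe set of Isl1 gave at least 1.54-fold and no call. The brightest probe set of Tbx20 was at least 3.08-fold higher in End than in SK7_ESC, with 154.2 against 5.8, where the main probe set of Tbx20 was under background in both. Which probe set follows the transcript more closely was not tested.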

How the results depend on the processing

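No call of a member reversed under the alternatives run, but a reversal needs a call of lower. At a background of 50 or 100 no member could get that call. None was above background in SK7_ESC, in Brain, or in both Ect and End. At a background of 20 the highest member signal in SK7_ESC, 21.0, was close to it. The lack of reversals is therefore no measure of stability. The members higher in Pme than in SK7_ESC, and than in the adult tissues, were 5 of 9, and 3 with a background of 100 and with a ratio of at least 3. Against SK7_ESC, members higher in Ect were 0, and 1 with a background of 20 (Hand2). Those higher in End were 0, and 1 with a background of 20 or with the geometric mean of probe sets (Isl1 in both), and 2 with the probe set of the highest signal (Isl1 and Tbx20). With a background of 20, the members above background were 7 in Pme, Tbx5 included, and 5 in Liver. They were then 4 in Ect, 4 in End, 3 in Sk_muscle, 1 in SK7_ESC and 1 in Brain. With a background of 100 they were 5 in Pme, 1 in Liver, and 0 in Ect, End and Sk_muscle. In Ect the number was 0 with the geometric mean, and in End it was 2 with the probe set of the highest signal. Shares of all genes above a background of 20 or 100 were not worked out, so these counts have no reference. Of the 18 pairs of a member and a gene of like pattern, 10 were named again after quantile normalization and 3 with a floor of 50. Members called in Pme were the same number after quantile normalization and after scaling to the same median; the latter moved the median log2 difference of all genes between Pme and SK7_ESC from 0.05 to -0.19. Of all genes, 1227 exceeded SK7_ESC in Pme, and 1849 and 772 with a background of 20 and 100, 784 with the geometric mean and 559 with a ratio of at least 3. Where a background, a ratio or a probe set was changed the rule itself differs, and no other cause was tested. No paired analysis was possible because each condition had 1 array. Signals close to background limit the calls of Isl1, Tbx20 and Kdr, and Nkx2-5, Tbx5 and Gata5 could not be ordered.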
